A study of Mus musculus with 15 samples.

Results

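Cells traced with an endothelial reporter were cultured from bone marrow and from lung in this study, and the comparison described here set the lung cells against marrow cells sorted as endomucin-negative. Endomucin (Emcn) is a surface sialomucin of venous, sinusoidal and capillary endothelium. The comparison rested on 4 of the 15 bulk RNA-seq libraries of the series, 2 labelled Lung and 2 labelled P0 Emcn- from bone marrow (BM), where P0 is the culture before its first passage. One lung and one marrow library (replicates 1) carried the batch label d, and the others (replicates 2) the batch label a, so each tissue was measured once in each batch. A level of 5 CPM (counts scaled to a common library total) in both libraries of lung or of P0 Emcn- held for 10980 of the 44674 genes counted. Tests and gene lists used all 19401 genes that passed a count filter. Some genes named below therefore did not reach 5 CPM in both libraries of a side.

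All 4 libraries came from mice labelled WT; the study's methods describe Tie2-CreERT2 mice crossed with the Rosa26-tdTomato reporter, given tamoxifen and aged 4 to 6 months, so that cells with Tie2 (Tek) promoter activity at induction carried tdTomato. Whole bone marrow or digested lung was plated in EGM-2 endothelial medium and sorted at day 14, the marrow cells as CD45-negative, tdTomato-positive and Emcn-; the Emcn- state of the lung cells is stated by the study and not by the labels. The labels name no animals, and whether a lung and a marrow library of one batch came from the same mouse is not stated in the sources used here. The 2 libraries of a group are treated as replicate cultures. The p-values measure only the spread between replicate libraries, estimated over all 15 libraries of the series and not from these 4 alone. Totals were 36214724 and 21688654 counts for lung replicates 1 and 2 and 39718807 and 9914620 for P0 Emcn- replicates 1 and 2. The last of these was the smallest library of the series, and 3 of its counts equal 0.303 CPM. The replicates of a group were distinct libraries, since their counts differed far beyond sampling error, with a chi-square divided by its degrees of freedom of 105.2 in lung and 129.5 in P0 Emcn-.

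Cells keep a record of the body region they come from. Mesenchymal and endothelial cells grown in a dish go on transcribing regional transcription factors, above all the Hox genes, whose order along 4 chromosomal clusters follows their order of expression from the head end to the tail end and, in limbs, from shoulder or hip to digit. Tbx5, Foxf1 and Gata4 are regulators of the mesoderm around heart and foregut, from which the lung buds grow, while Pitx1, Shox2 and the posterior Hox genes are regulators of limb mesoderm, from which femur and tibia form. Interferon-stimulated genes, a separate programme, are switched on by transcription factors that include STAT2 and IRF9 through a short DNA element, the interferon-stimulated response element.

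The whole-transcriptome comparison was made with edgeR's quasi-likelihood test fitted to all 15 libraries, and a gene was called when its Benjamini-Hochberg adjusted p was under 0.05 and its log2 fold change passed 1.5 in size. Of 19401 genes tested, 414 were called higher in lung (2.13%) and 329 lower in lung than in P0 Emcn- (1.70%). These shares are the background for the list counts given below. At an unadjusted p under 0.05 there were 3491 genes. Of the 10980 genes at 5 CPM or more on a side, 268 were called higher and 164 lower, but 135 of the 268 reached that level only in lung and 114 of the 164 only in P0 Emcn-, the side on which they were high. Of all 10980, 10035 reached 5 CPM on both sides. A further 547 did so only in lung and 398 only in P0 Emcn-. All 414 genes called higher in lung had both lung libraries above both P0 Emcn- libraries, as did 328 of the 329 called lower in the opposite direction, while 7758 of all 19401 tested genes (40%) showed such a separation in one direction or the other. Within batches, 241 of the 414 and 219 of the 329 differed by more than 1.5 on the log2(CPM + 0.5) scale in both batch d and batch a. The lung and P0 Emcn- libraries were each other's nearest neighbours among the groups. Their root mean square difference on variance-stabilised log2 counts was 0.741 in batch d and 0.752 in batch a. It was 0.539 between the lung replicates and 0.668 between the P0 Emcn- replicates. The replicates of P1, P2 and P3 Emcn-, which also enter the estimate of spread, were closer, at 0.39, 0.42 and 0.425. With only the 4 compared libraries in the fit, 80 genes were called higher in lung and 65 lower. With all 15 libraries and the replicate number as a block, which pairs lung and marrow by batch, 484 were called higher and 362 lower.

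**Figure D1:**
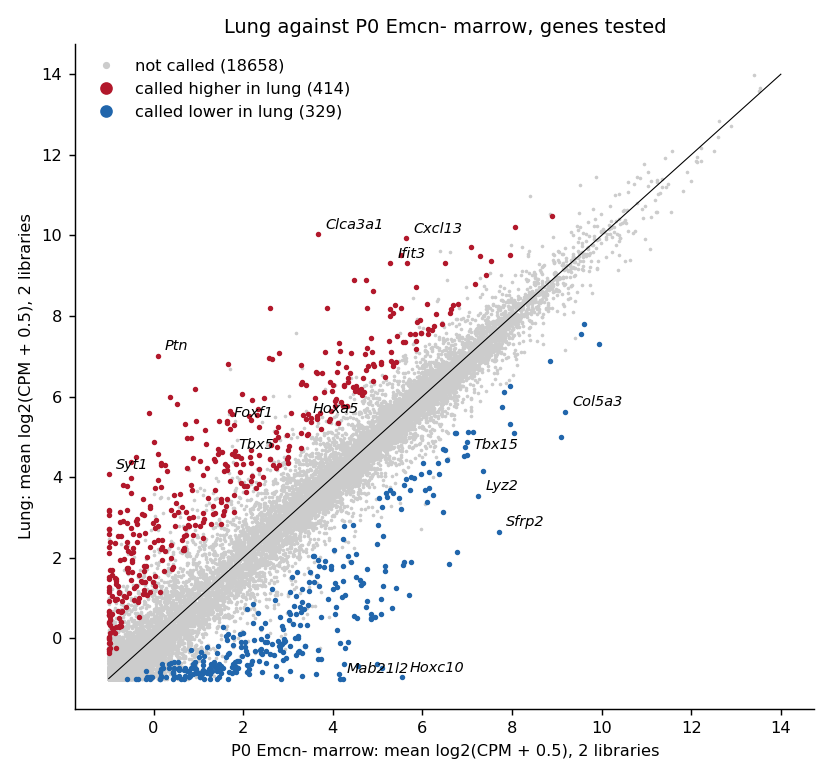
Mean log2(CPM + 0.5) of the 2 lung libraries against that of the 2 P0 Emcn- libraries for the 19401 genes tested; red points are the 414 genes called higher in lung, blue points the 329 called lower, grey points the others, and the line marks equal levels. Most genes lie near the line, Clca3a1, Cxcl13 and Ptn lie far above it and Hoxc10, Mab21l2 and Sfrp2 far below it.

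Cell type markers were then set against the labels. The fibroblast list held 18 tested genes and none was called different between the tissues, with a median log2 difference of -0.35. Its summed level was 16192 and 16856 CPM in lung and 24978 and 19677 CPM in P0 Emcn-, against 3069 and 3541 CPM in the 2 P0 Emcn+ libraries sorted from the same marrow cultures. Pdgfra, the receptor that marks many fibroblasts, was at 938 and 1122 CPM in lung and 1147 and 1566 CPM in P0 Emcn-. Col1a2, a chain of type I collagen, was at 4592 and 4204 CPM in lung and 7053 and 4779 CPM in P0 Emcn-. The 25 endothelial identity genes summed to 1776 and 2726 CPM in lung and 1310 and 1503 CPM in P0 Emcn-, far below the 16801 and 14871 CPM of P0 Emcn+. The defining endothelial transcripts were thus present at low levels in all 4 libraries, and mesenchymal transcripts were abundant in all 4. In such bulk samples fewer cells of a type and less RNA per cell cannot be told apart.

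Defining genes of lung epithelium were absent. The surfactant genes Sftpc and Sftpd, Cdh1 and Scgb3a2 had no count in any of the 4 libraries, and Epcam had none in lung, which allows up to 0.0828 and 0.138 CPM in lung replicates 1 and 2 (3 counts per library). The whole list of 20 summed to 68.5 and 99.8 CPM in lung and 46.2 and 28.3 CPM in P0 Emcn-, most of it from Abca3, and of its 9 tested genes Krt7 and Krt18 were called higher in lung. Granulocyte, lymphocyte and platelet markers summed to at most 10.3 CPM in every one of the 4 libraries. Both Xist and Y-linked transcripts were present in all 4 libraries, and the mix of sexes in each library was not tested.

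Tbx5, Foxf1, Ptn and Hoxc10 were the markers given for this comparison when it was proposed. Tbx5, a T-box factor needed for lung bud, heart and forelimb formation (chr5:119832668-119885219 in GRCm38), was at 21.5 and 25.3 CPM in lung replicates 1 and 2 and at 2.97 and 2.72 CPM in P0 Emcn- replicates 1 and 2. Both lung libraries were above both marrow libraries, and the log2 fold change was 3.10 (SE 0.468, edgeR adjusted p = 0.00581). Foxf1, a forkhead factor of splanchnic mesoderm and lung capillaries (chr8:121084386-121088144), was at 47.9 and 34.0 CPM in lung, far above the 2.69 and 2.52 CPM of P0 Emcn- (log2 4.04, SE 0.511, adjusted p = 0.00259). Ptn, which encodes the secreted heparin-binding growth factor pleiotrophin (chr6:36714929-36810220), was at 158 and 105 CPM in lung and 0.252 and 1.01 CPM in P0 Emcn-. Its log2 fold change was 8.18 (SE 0.891, adjusted p = 0.00153), and elsewhere in the series it ranged from 0 to 0.0386 CPM among P0 Emcn+ libraries, from 2.50 to 28.9 CPM in P1 to P4 Emcn- and from 19.7 to 24.3 CPM in BM mesenchymal stromal cells (MSC). Hoxc10, a posterior Hox gene (chr15:102966796-102971893), went the other way, at 0.0276 and 0 CPM in lung and 48.0 and 44.4 CPM in P0 Emcn-. A single count in the 2 lung libraries together put its ratio at 2739-fold lower in lung with a 95% counting interval of 491 to 108239 (edgeR adjusted p = 2.44e-06).

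Regulators of lung and foregut mesoderm were on balance higher in the lung cultures. Of 21 tested, 7 were called higher, against 2.13% of all tested genes, and none lower. The median log2 difference was 1.15 against 0.00 over all tested genes. The list was chosen with earlier results of these data known, and the given markers Tbx5 and Foxf1 are 2 of the 7. Apart from Tbx5 and Foxf1 the called genes were Fendrr, Gata4, Tcf21, Wnt2b and Bmp4. Fendrr, a long noncoding RNA transcribed divergently from a start site beside Foxf1 (chr8:121054882-121083110), was at 14.4 and 15.9 CPM in lung and 0.201 and 0.202 CPM in P0 Emcn-. Its log2 fold change was 6.27 (SE 0.932, adjusted p = 0.00684). Gata4, a zinc finger factor of heart and foregut mesoderm, was at 3.23 and 4.52 CPM in lung and had no count in P0 Emcn-, where 3 counts over the group equal 0.0604 CPM. It was at least 64.1-fold higher in lung (adjusted p = 0.0057). Tcf21, a bHLH factor of lung and kidney fibroblasts, was at 9.33 and 3.23 CPM in lung, had no count in P0 Emcn-, and was at least 104-fold higher in lung (adjusted p = 0.0235). Without P0 Emcn- replicate 1, 4 of the 21 were called higher, and 7 without any other one of the 4 libraries. Tbx20, a T-box factor of heart and lung mesenchyme outside the list, was at 11.8 and 5.95 CPM in lung, again with no count in P0 Emcn- (at least 147-fold, adjusted p = 0.00422).

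Signals that act with those factors moved too. Wnt2b, a ligand of lung bud specification, was at 3.07 and 9.13 CPM in lung and 0.126 and 0.504 CPM in P0 Emcn- (log2 4.64, SE 0.721, adjusted p = 0.0064). Bmp4 was at 19.7 and 65.2 CPM in lung and 1.49 and 4.84 CPM in P0 Emcn- (log2 3.95, SE 0.692, adjusted p = 0.0106). The replicate 2 libraries were the higher ones in both tissues for both genes, and lung stayed above marrow within each batch. Gata6 separated by 69.3 and 74.9 CPM in lung against 14.5 and 13 CPM in P0 Emcn- without passing the threshold (log2 2.45, adjusted p = 0.11). Tbx4, a lung and hindlimb factor, was at 2.04 and 4.98 CPM in lung and 12.3 and 10.8 CPM in P0 Emcn- (log2 -1.68, adjusted p = 0.244). Nkx2-1, the lung epithelial regulator, was at or below 0.11 CPM in all 4 libraries.

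**Figure D2:**
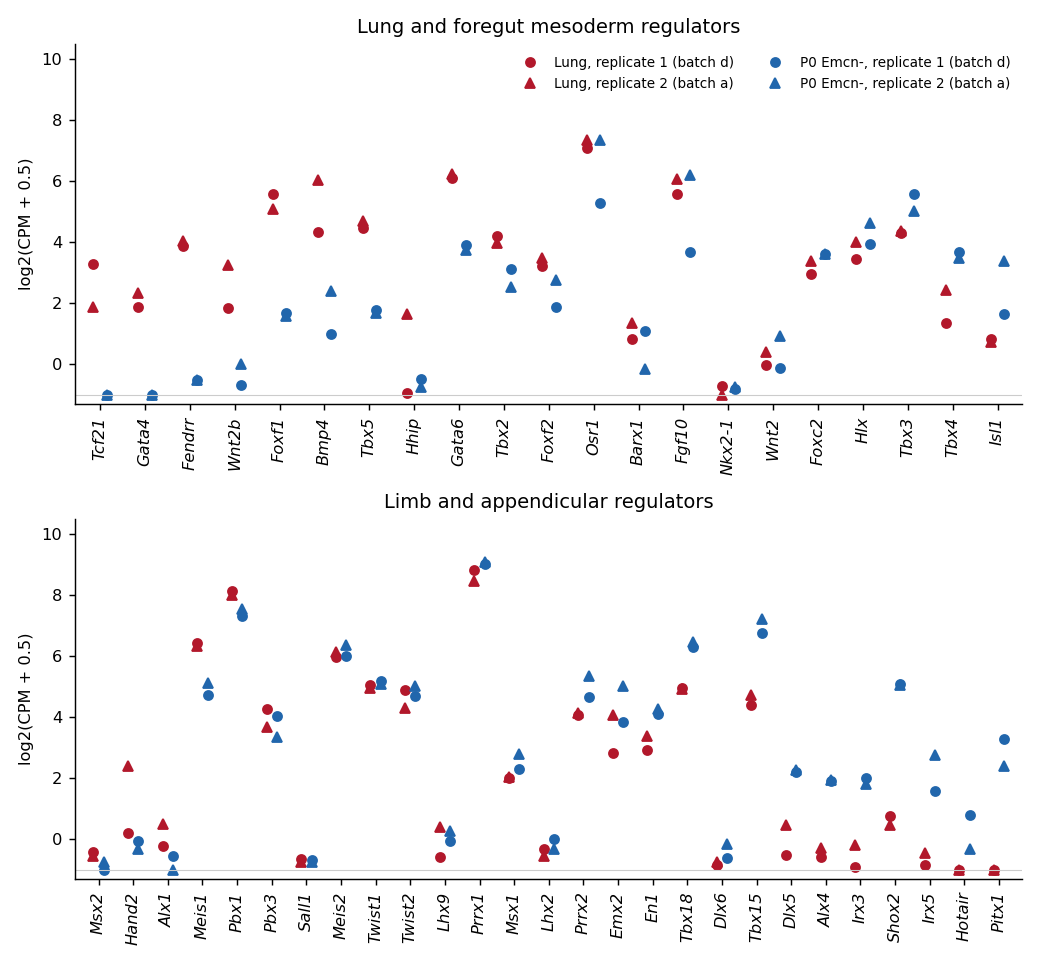
log2(CPM + 0.5) of the tested regulators of lung and foregut mesoderm (top) and of limb and appendicular mesoderm (bottom) in each of the 4 libraries, ordered by log2 fold change; red is lung, blue is P0 Emcn-, circles are batch d, triangles batch a, and the grey line marks 0 counts. Tcf21, Gata4 and Fendrr stand well above P0 Emcn- at the left of the top panel, and Pitx1, Irx5 and Shox2 well below it at the right of the bottom panel.

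Limb regulators showed the opposite tendency: of 27 tested, 6 were called lower in lung, against 1.70% of all tested genes. Meis1 was the 1 called higher, and the median was -0.69. Pitx1, the homeobox gene that marks hindlimb identity, had no count in either lung library and was at 9.27 and 4.74 CPM in P0 Emcn-. It was at least 135-fold lower in lung, where 3 counts over the group equal 0.0518 CPM (adjusted p = 0.00231). Shox2, a homeobox gene of the proximal limb skeleton, was at 1.19 and 0.876 CPM in lung and 33.3 and 33.0 CPM in P0 Emcn- (log2 -4.91, SE 0.333, adjusted p = 0.000106). Tbx15, a T-box gene of limb, skin and fat mesenchyme, was at 20.5 and 26.0 CPM in lung and 108 and 148 CPM in P0 Emcn- (log2 -2.40, SE 0.227, adjusted p = 0.000833). Irx3, Irx5 and Dlx5 were also called lower, each under 1 CPM in both lung libraries and between 2.49 and 6.25 CPM in P0 Emcn-. General mesenchymal factors of the same list were not called. Prrx1, the gene behind many limb mesenchyme Cre lines, was at 454 and 351 CPM in lung and 513 and 536 CPM in P0 Emcn- (log2 -0.31, adjusted p = 0.539), and Twist1 lay between 30.7 and 35.7 CPM in all 4 libraries. With the replicate number as a block in the fit, 8 limb regulators were called lower, the added ones being Alx4 and the noncoding RNA Hotair, while Meis1 remained the single gene called higher. Without lung replicate 1, 3 were called lower, and without P0 Emcn- replicate 1 Meis1 was not called.

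Mab21l2, a gene of limb, eye and body wall development outside both lists, had the largest fitted decrease of the genes at 5 CPM or more in both P0 Emcn- libraries. It had no count in lung and was at 15.4 and 19.4 CPM in P0 Emcn-, at least 336-fold lower in lung (adjusted p = 0.00245). In the other marrow libraries it ranged from 11.7 to 48.1 CPM in P1 to P4 Emcn- and from 38.5 to 54.1 CPM in MSC, and from 0.444 to 0.541 CPM in P0 Emcn+.

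The Hox genes separated by cluster. Of 35 tested, 12 were called lower in lung and 3 higher, against 1.70% and 2.13% of all tested genes. The median was -1.71 (-1.23 with each gene at 0 to 3 counts in a tissue set at its counting ratio or bound). On the log2(CPM + 0.5) scale the list's median difference was -0.49 in batch d and -0.04 in batch a. The given marker Hoxc10 is among the 12. The Hoxc cluster (chr15:102921103-103036852) was close to silent in lung: its 9 tested genes summed to 3.09 and 5.81 CPM in lung and 127 and 143 CPM in P0 Emcn-, and 7 were called lower. Hoxc6 was at 0.387 and 1.80 CPM in lung and 29.0 and 27.7 CPM in P0 Emcn- (log2 -4.73, SE 0.559, adjusted p = 0.00191). Hoxc4, at the head end of the cluster, kept the most in lung, with 2.21 and 2.63 CPM against 9.01 and 15.9 CPM (log2 -2.29, SE 0.338, adjusted p = 0.00525). Hoxc8, Hoxc9 and Hoxc11 had 1 or 2 counts in the lung libraries together, and their ratios were 293-fold (95% counting interval 80.6 to 2425), 443-fold (122 to 3662) and 584-fold (104 to 23131) lower in lung.

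Within the Hoxa cluster (chr6:52155590-52260880) the direction changed along the chromosome. The anterior genes were higher in lung, with Hoxa5, which patterns the lung and its airways, at 44.5 and 41.8 CPM in lung and 7.10 and 14 CPM in P0 Emcn- (log2 2.12, SE 0.269, adjusted p = 0.00259). Hoxa3 and Hoxa4 were called higher as well (log2 1.57 and 2.55). The posterior genes were almost absent from lung, with Hoxa10 at 0.138 and 0.138 CPM against 22.8 and 42.8 CPM (log2 -7.76, SE 0.444, adjusted p = 4.74e-05) and Hoxa9 at 0.11 and 0.184 CPM against 13.5 and 25.2 CPM (log2 -6.99, SE 0.447, adjusted p = 8.43e-05). Hoxa7, between them, differed by -1.02 with an adjusted p of 0.00994 and did not reach the fold limit. Hoxa11 was also called lower. In the Hoxd cluster (chr2:74668310-74765142), Hoxd8 was at 0.221 and 0.415 CPM in lung and 10.6 and 14 CPM in P0 Emcn- (log2 -5.25, SE 0.527, adjusted p = 0.00097), and Hoxd9 was called lower too.

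The Hoxb cluster (chr11:96194316-96368256) went toward lung. Its 8 tested genes summed to 127 and 121 CPM in lung and 12 and 13.5 CPM in P0 Emcn-. Of the 8 genes, 7 had both lung libraries above both marrow libraries. Over all tested genes, 40% showed such a separation in one direction or the other. Hoxb3 was at 44.9 and 39.0 CPM in lung and 2.42 and 3.73 CPM in P0 Emcn- (log2 3.88, SE 1.13), and Hoxb4 at 25.7 and 28.1 CPM against 2.14 and 3.73 CPM (log2 3.31, SE 0.878). None of the 8 was called in the fit without a block, where the adjusted p was 0.0844 for Hoxb3 and 0.0603 for Hoxb4. With the replicate block, 7 of the 8 were called higher, with adjusted p of 0.00938 for Hoxb3 and 0.00719 for Hoxb4, and the Hox list as a whole had 11 genes called higher and 12 lower. The block fit called 2.49% of all tested genes higher in lung and 1.87% lower. The P0 Emcn+ cells of the same marrow cultures carried another combination: the Hoxb genes summed to 266 and 169 CPM there, the Hoxc genes to 2.47 and 2.55 CPM and the Hoxd genes to 88.9 and 70.8 CPM. The Hox levels of marrow cells differed in these sums between the 2 sorted populations as well as from lung, and all Hox transcripts summed to 222 and 221 CPM for lung, 228 and 301 CPM for the Emcn- and 424 and 307 CPM for the Emcn+ marrow cells.

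**Figure D3:**
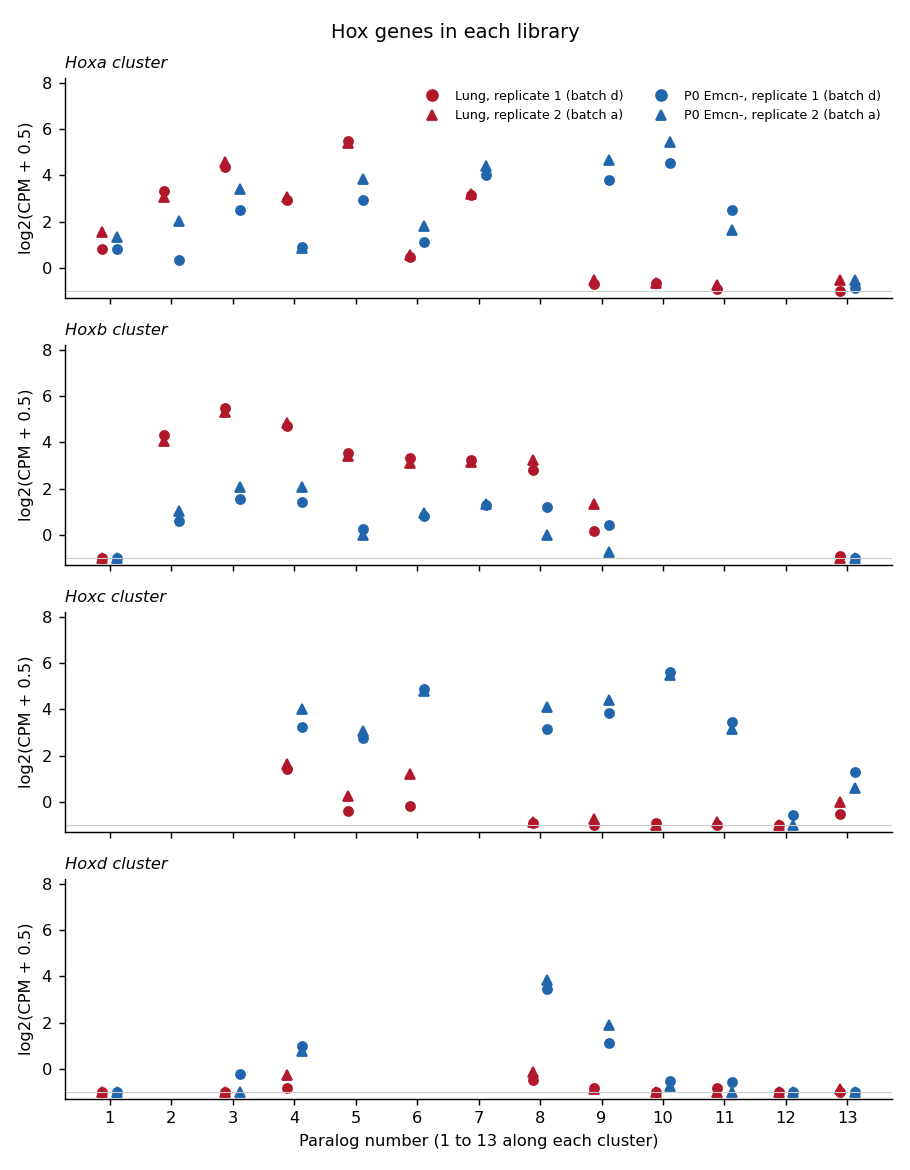
log2(CPM + 0.5) of each Hox gene in the 4 libraries, one panel per cluster, by paralog number from the head end (1) to the tail end (13); red is lung, blue is P0 Emcn-, circles batch d, triangles batch a, and the grey line marks 0 counts. Lung lies above P0 Emcn- for Hoxb2 to Hoxb8 and for Hoxa2 to Hoxa5, and below it for Hoxa9 to Hoxa11 and through the Hoxc cluster.

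Secreted signals differed gene by gene and not as whole pathways. Among 26 Wnt ligands and modulators, 3 were called higher in lung (Wnt2b, Rspo3 and Frzb) and 2 lower (Sfrp2 and Rspo2), with a median of -0.01. Over all tested genes, 2.13% were called higher and 1.70% lower. Sfrp2, a secreted binder of Wnt proteins (chr3:83766321-83774316), was at 4.94 and 6.69 CPM in lung and 202 and 214 CPM in P0 Emcn- (log2 -5.10, SE 0.397, adjusted p = 0.00035). R-spondins amplify Wnt signals at the receptor, and the 2 that were called went in opposite directions. Rspo2 was at 2.98 and 0.784 CPM in lung and 42.2 and 62.4 CPM in P0 Emcn- (log2 -4.65, SE 0.56, adjusted p = 0.00206), while Rspo3 was at 49.1 and 34.4 CPM in lung and 16.1 and 7.26 CPM in P0 Emcn- (log2 1.88, SE 0.405, adjusted p = 0.0257). Without P0 Emcn- replicate 2, 1 Wnt gene was called higher and 3 lower, and without P0 Emcn- replicate 1, 3 higher and 4 lower.

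Of 27 genes for BMP ligands, antagonists and targets, Bmp4 was called higher in lung and 3 were called lower (2 with the replicate block), Bmp5 and Fst among them. For this and the other lists of this paragraph, the shares over all tested genes were 2.13% higher and 1.70% lower. The call of Bmp4 was lost without P0 Emcn- replicate 1. Without lung replicate 1, 1 was called lower. Bmp5 had 1 count in the lung libraries together and was at 5.87 and 6.35 CPM in P0 Emcn-, a ratio of 345-fold lower in lung (95% counting interval 61.5 to 13685). Fst, which encodes the activin and BMP antagonist follistatin, was at 35.2 and 44.6 CPM in lung and 145 and 422 CPM in P0 Emcn- (log2 -2.76, SE 0.497, adjusted p = 0.0118). The immediate BMP targets Id1, Id2 and Id3 did not pass the test, with log2 differences of -0.40, -0.81 and -0.10. None of the 11 tested FGF ligands and receptors was called. In the pleiotrophin and midkine axis Ptn was the 1 called gene of 9; its relative Mdk was at 45.2 and 22.5 CPM in lung and 61.6 and 22.0 CPM in P0 Emcn- (log2 -0.24, adjusted p = 0.915), and the pleiotrophin receptor gene Ptprz1 was at or below 1.21 CPM in all 4 libraries. Of 12 Hedgehog pathway genes 1 was called higher, the ligand gene Dhh, and 1 lower, Gas1. Dhh was at 0.828 and 3.46 CPM in lung with no count in P0 Emcn- (at least 35.5-fold higher in lung, adjusted p = 0.0248), and its call was lost without lung replicate 2 or either P0 Emcn- replicate. Gas1, a co-receptor gene, was at 281 and 177 CPM in lung and 553 and 1102 CPM in P0 Emcn- (log2 -1.78, SE 0.36, adjusted p = 0.0198), and was not called without lung replicate 2 or P0 Emcn- replicate 2.

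Of 17 tested genes for factors that marrow stroma supplies to blood stem cells 1 was called, a share close to that over all genes. It was Vcam1, an adhesion receptor for blood cells, at 524 and 519 CPM in lung and 162 and 180 CPM in P0 Emcn- (log2 1.68, SE 0.313, adjusted p = 0.014), and its call was lost without lung replicate 1 or either P0 Emcn- replicate. Cxcl12, the chemokine that retains stem cells in marrow, was at 814 and 800 CPM in lung and 2541 and 1858 CPM in P0 Emcn- (log2 -1.38, SE 0.583, adjusted p = 0.244). Kitl was at 41.3 and 53.0 CPM in lung and 77.5 and 130 CPM in P0 Emcn- (log2 -1.07, adjusted p = 0.116). Both genes had lung below marrow in each batch, and neither difference passed the threshold.

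Among 28 chemokine ligand genes, Cxcl13 was called higher in lung and 6 were called lower, the latter against 1.70% of all tested genes. Cxcl13, which attracts B cells (chr5:95956951-95961068), was at 1022 and 926 CPM in lung and 28.4 and 84.3 CPM in P0 Emcn- (log2 4.19, SE 0.652, adjusted p = 0.0064). It was at 0.0951 to 0.464 CPM in P0 Emcn+ and 98.6 to 314 CPM in P1 to P4 Emcn-, so lung held the highest 2 values of the series. The neutrophil attractants Cxcl1 and Cxcl5 were lower in lung, Cxcl1 at 2.46 and 3.73 CPM against 45.7 and 48.8 CPM (log2 -3.88, SE 0.464, adjusted p = 0.00205). Cxcl14 was at 0.414 and 0.277 CPM against 19.2 and 18.6 CPM (log2 -5.64, SE 0.647, adjusted p = 0.00187). Ccl3, Ccl4 and Ccl6, which macrophages make in quantity, were the others called lower. Without lung replicate 1, 3 chemokine genes were called lower.

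Matrix genes were called in specific chains. The 44 collagen genes had a median of -0.16, and the chains of types I and III were not called. They summed to 22556 and 26264 CPM in lung and 38072 and 27542 CPM in P0 Emcn-, so both lung libraries were below both marrow libraries. Of the 44, 4 were called higher and 4 lower, against 2.13% and 1.70% of all tested genes. Lung was called higher for Col4a4, Col4a5, Col4a6 and Col23a1. Col4a5 and Col4a6 encode basement membrane chains from a pair of head-to-head genes on the X chromosome; Col4a5 was at 122 and 149 CPM in lung and 17.1 and 25.2 CPM in P0 Emcn- (log2 2.75, SE 0.264, adjusted p = 0.000833), and Col4a6 at 5.96 and 8.11 CPM against 0.453 and 0.101 CPM (log2 4.45, SE 0.842, adjusted p = 0.0148). The abundant basement membrane chain Col4a1 was at 3246 and 4192 CPM in lung and 5281 and 4237 CPM in P0 Emcn- (log2 -0.29, adjusted p = 0.717). Marrow was called higher for Col5a3, Col18a1, Col8a2 and Col6a4. Col5a3 was at 47.7 and 50.2 CPM in lung and 544 and 615 CPM in P0 Emcn- (log2 -3.50, SE 0.355, adjusted p = 0.000971), and Col18a1, the source of endostatin, at 128 and 191 CPM against 1058 and 919 CPM (log2 -2.57, SE 0.448, adjusted p = 0.0105). Without P0 Emcn- replicate 1, 1 collagen gene was called higher, and without lung replicate 1 or 2, 1 or 2 were called lower.

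Of 33 elastic fibre and matrix glycoprotein genes 1 was called, a share close to that over all genes. It was nephronectin (Npnt), a basement membrane ligand. Npnt was at 15.8 and 18.9 CPM in lung and 0.302 and 1.41 CPM in P0 Emcn- (log2 4.68, SE 0.713, adjusted p = 0.00589). Its integrin receptor chain Itga8 was at 42.9 and 39.5 CPM in lung and 2.11 and 0.908 CPM in P0 Emcn- (log2 4.69, SE 0.445, adjusted p = 0.000833). With the replicate block, Ltbp1, Efemp1, Spon1 and Thbs1 joined Npnt, which made 5 of 33 called higher. That fit called 2.49% of all tested genes higher. Timp3, a matrix-bound protease inhibitor, was called higher in lung at 1055 and 668 CPM against 128 and 145 CPM (log2 2.73, SE 0.453, adjusted p = 0.00851). Among matrix genes lower in lung, Cilp was at 0.0552 and 0.138 CPM in lung and 30.6 and 37.2 CPM in P0 Emcn- (log2 -8.44, SE 0.51, adjusted p = 6.08e-05), Thbs4 at 0.0552 and 0.184 CPM against 31.0 and 17.0 CPM (log2 -7.71, SE 1.29, adjusted p = 0.00887), and Comp at 0.939 and 0.922 CPM against 13.3 and 68.9 CPM (log2 -5.37, SE 1.21, adjusted p = 0.0308). Comp was the 1 gene called of 13 tested on the cartilage list, against 1.70% of all tested genes called lower. That list had a median of 0.00 and summed to 297 and 380 CPM in lung and 124 and 264 CPM in P0 Emcn-.

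Markers of tissue-specific stromal cells followed their organ in part. Of 17 lung alveolar fibroblast genes, 5 were called higher in lung (Tcf21, Npnt, Itga8, Limch1 and Gpc3) and 1 lower (Enpep), with a median of 0.74. The shares over all tested genes were 2.13% higher and 1.70% lower. Gpc3, a heparan sulfate proteoglycan gene, was at 188 and 81.2 CPM in lung and 1.46 and 17.4 CPM in P0 Emcn- (log2 3.99, SE 0.889, adjusted p = 0.0297). Of 18 osteolineage genes none was called higher and 4 lower (Ibsp, Dlx3, Dlx5 and Dmp1), with a median of -1.12. Ibsp, bone sialoprotein, had no count in lung and was at 2.06 and 137 CPM in P0 Emcn-, so the size of its difference rested on replicate 2. Runx2, the regulator of osteoblast fate, was at 30.3 and 25.6 CPM in lung and 42.3 and 34.1 CPM in P0 Emcn- (log2 -0.38, adjusted p = 0.503). Of 18 marrow stroma and adipocyte genes 4 were called lower in lung, the adipocyte genes Adipoq, Plin1 and Cfd and the adipogenic factor Cebpa, with a median of -1.15. Adipoq, which encodes adiponectin, was at 7.95 and 1.11 CPM in lung and 41.5 and 54.3 CPM in P0 Emcn- (log2 -3.28, SE 0.768, adjusted p = 0.0365). Lepr, the leptin receptor gene of marrow stroma, was at 0.497 and 1.24 CPM against 4.53 and 13.3 CPM, with an adjusted p of 0.237, and was called lower with the replicate block (adjusted p = 0.0462). Leaving out single libraries gave 3 to 5 alveolar fibroblast genes called higher, 1 to 4 osteolineage genes called lower (1 without lung replicate 1) and 1 to 3 marrow stroma genes called lower (1 without P0 Emcn- replicate 1, 2 without lung replicate 2).

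Markers of mesothelium, the outer lining of the lung, were at low levels. Of 7 tested, 2 were called higher in lung, Msln and Gpm6a. The study lists Gpm6a as a sinusoidal or venous endothelial marker. Msln was at 1.46 and 11.2 CPM in lung with no count in P0 Emcn-. The whole list summed to 5.83 and 22.5 CPM in lung against 1.31 and 1.01 CPM in P0 Emcn-. In P0 Emcn+ it summed to 34.4 and 33.4 CPM, above both lung libraries. The keratin genes named above were Krt7 at 7.12 and 4.33 CPM against 0.453 and 0.303 CPM and Krt18 at 2.04 and 10.3 CPM against 0.0252 and 0 CPM. The part of mesothelial or epithelial cells in the differences above was not tested.

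Interferon-stimulated genes were higher in lung than in P0 Emcn-. Of 36 tested, 21 were called higher, against 2.13% of all tested genes, and none lower, with a median log2 difference of 2.12. The list summed to 9655 and 4103 CPM in lung and to 2949 and 2240 CPM in P0 Emcn-. In P0 Emcn+ it summed to 4285 and 4067 CPM, near lung replicate 2, so not all marrow cells were low. The response element was searched in RefSeq promoter windows (GRCm38.p6, 250 bases before to 50 after each start) as GAAANNGAAA on both strands, N being any base; matches may overlap one another. It was present in 17 of the 31 listed genes with a window (54.8%) and in 3.99% of all 27025 genes with one. The list was chosen as interferon response genes, so its share says nothing of lung against marrow. Among genes with a window, a match was present in 14.2% of those called higher in lung and 5.58% of those called lower. With the listed genes left out, it was present in 10.7% of those called higher. The share was 3.83% over the genes tested. The windows below show it in 4 called genes, Oas3 (chr5:120777680-120777779), Ifit3 (chr19:34583328-34583427), Isg15 (chr4:156200836-156200935) and Rsad2 (chr12:26456518-26456617), each as 100 bases 5′ to 3′ on the strand of the gene with the matches in capitals. A match in these letters is a description and not a site of binding.
Oas3: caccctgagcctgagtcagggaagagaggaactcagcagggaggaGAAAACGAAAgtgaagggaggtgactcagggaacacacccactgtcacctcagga
Ifit3: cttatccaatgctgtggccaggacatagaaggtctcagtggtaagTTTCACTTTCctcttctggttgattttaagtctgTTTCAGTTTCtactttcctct
Isg15: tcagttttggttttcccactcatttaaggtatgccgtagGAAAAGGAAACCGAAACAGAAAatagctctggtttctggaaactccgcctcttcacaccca
Rsad2: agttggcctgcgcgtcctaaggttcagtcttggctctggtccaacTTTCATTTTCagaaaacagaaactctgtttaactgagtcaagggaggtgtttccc

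The 2 lung libraries were not alike in this programme. Lung replicate 1 was above replicate 2 for 35 of the 36 genes. Ifit3, an antiviral protein of the IFIT family, was at 1646 CPM in lung replicate 1 and 244 CPM in replicate 2, against 28.3 and 51.8 CPM in P0 Emcn- (log2 4.65, SE 0.856, adjusted p = 0.013). Rsad2, which encodes viperin, was at 143 and 15.2 CPM in lung and 3.15 and 2.62 CPM in P0 Emcn- (log2 4.84, SE 0.942, adjusted p = 0.0167). Isg15, a ubiquitin-like modifier, was at 189 and 59.9 CPM against 17.5 and 20.7 CPM (log2 2.78, SE 0.58, adjusted p = 0.0223). Oas3, an RNA sensor, was nearly equal in the lung libraries, at 48.0 and 43.8 CPM against 3.83 and 5.14 CPM (log2 3.44, SE 0.347, adjusted p = 0.00097), and so was Oas2 at 151 and 125 CPM against 25.5 and 32.2 CPM. Of the factors that drive the programme, Stat2 was called at 385 and 214 CPM in lung and 101 and 97.1 CPM in P0 Emcn- (log2 1.67, SE 0.24, adjusted p = 0.00462) and Irf7 was called at 225 and 135 CPM against 22.7 and 35.7 CPM (log2 2.71, SE 0.435, adjusted p = 0.00735). Irf9 was not called, at 119 and 78.4 CPM in lung and 48.3 and 53.7 CPM in P0 Emcn-, since its log2 difference of 1.03 (SE 0.25, adjusted p = 0.0433) was under the fold limit.

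Within batches, the list's median difference was 2.59 in batch d and 0.99 in batch a, with 33 of 36 genes higher in lung in each; over all tested genes 45.2% were higher in lung in batch d and 42.9% in batch a. Without lung replicate 1, 7 of the 36 were called; without lung replicate 2, 27 were called. Without P0 Emcn- replicate 1 the count was 4 and without replicate 2 it was 7. Antigen presentation genes of the list did not pass the test: H2-K1 was at 262 and 269 CPM in lung and 441 and 214 CPM in P0 Emcn- (log2 -0.24, adjusted p = 0.731). Outside the list, the interferon-inducible GTPase genes Gvin1 and Tgtp1 and the ubiquitin ligase gene Rnf213 were called higher in lung. Gvin1 was at 1021 and 521 CPM in lung and 46.3 and 45.2 CPM in P0 Emcn- (log2 4.15, SE 0.578, adjusted p = 0.00402), and Rnf213 at 1939 and 1035 CPM against 585 and 384 CPM (log2 1.69, SE 0.303, adjusted p = 0.0118). Ifit3, Ifit3b, Gvin1 and Tgtp1 have near-identical gene copies between which reads may have been split.

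**Figure D4:**
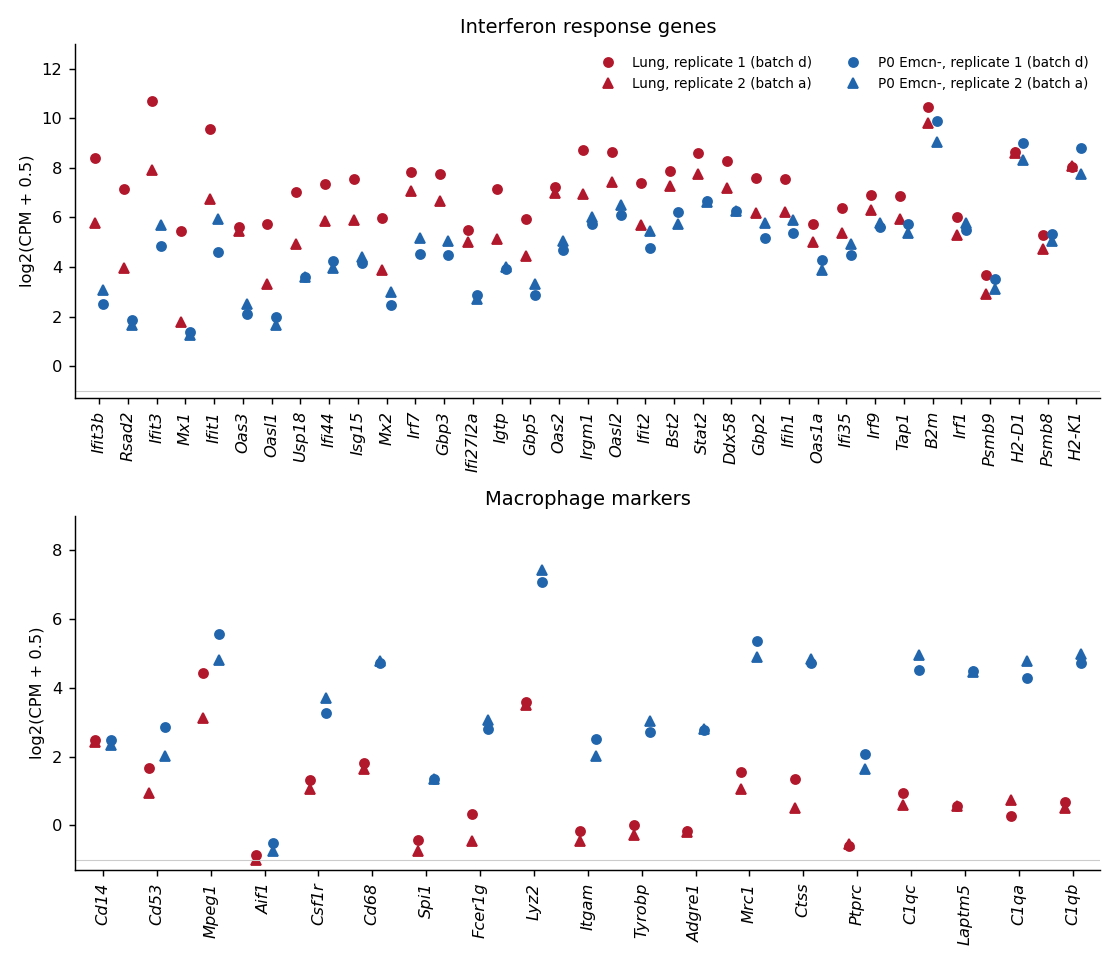
log2(CPM + 0.5) of 35 of the 36 tested interferon response genes (top) and the 19 macrophage markers (bottom) in each library, ordered by log2 fold change; red is lung, blue is P0 Emcn-, circles batch d, triangles batch a, and the grey line marks 0 counts. The lung circles lie above the lung triangles for all but 1 of the interferon genes plotted, and both lung symbols lie below both marrow symbols for most macrophage markers.

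Macrophage transcripts were lower in lung. Of 19 markers 15 were called lower, against 1.70% of all tested genes, and none higher, with a median of -3.72. The list summed to 56.3 and 37.5 CPM in lung and 414 and 444 CPM in P0 Emcn-. Lyz2, lysozyme, was at 11.5 and 10.8 CPM in lung and 133 and 171 CPM in P0 Emcn- (log2 -3.70, SE 0.52, adjusted p = 0.00422). Mrc1, the mannose receptor, was at 2.43 and 1.57 CPM against 40.9 and 29.0 CPM (log2 -4.04, SE 0.468, adjusted p = 0.00187), and C1qa, a complement C1q chain, at 0.718 and 1.15 CPM against 19.0 and 26.9 CPM (log2 -4.57, SE 0.55, adjusted p = 0.00206). Ptprc (CD45), the antigen that the sort left out, was at 0.166 and 0.184 CPM in lung and 3.75 and 2.62 CPM in P0 Emcn-. Still more was present in P0 Emcn+, where the list summed to 1461 and 1163 CPM. With single libraries left out, 11 to 14 of the 19 stayed called lower. Cd5l, a macrophage-secreted protein gene, and the gelatinase gene Mmp9 were among the 12 largest decreases. The C1q genes, C5ar1, Ccl3, Ccl4 and Ccl6 moved with this list, and the part of macrophages in those differences was not tested. Ear2, of the alveolar macrophage list, was the exception at 8.34 and 5.03 CPM in lung and 1.33 and 1.11 CPM in P0 Emcn- (log2 2.50, SE 0.392, adjusted p = 0.00852), while Marco and Chil3 of that list were not called and Siglecf had 1 count in the 4 libraries and was not tested.

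Complement genes went both ways, with 2 of 21 genes called higher in lung and 6 lower, against 2.13% and 1.70% of all tested genes. C2, a protease component of the classical pathway, was at 94.7 and 122 CPM in lung and 34.3 and 21.2 CPM in P0 Emcn- (log2 2.02, SE 0.432, adjusted p = 0.0251). C4b was at 126 and 276 CPM in lung and 543 and 1017 CPM in P0 Emcn- (log2 -1.89, SE 0.38, adjusted p = 0.0193), with a near-identical copy, C4a, in the genome. Leaving out any one of the 4 libraries ended both calls of higher genes.

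Endothelial identity genes did not give one direction. Of 25 tested, 2 were called higher in lung (Vwf and Eng), 1 lower (Tek), and the median log2 difference was 0.95. In batch d, 9 of the 25 were higher in lung, with a median difference of -0.37; in batch a, 22 of the 25 were, with a median of 2.95. Cdh5, which encodes VE-cadherin, shows this, at 39.5 and 171 CPM in lung replicates 1 and 2 and 119 and 6.35 CPM in P0 Emcn- replicates 1 and 2 (log2 0.78, SE 1.27, adjusted p = 0.832). Its log2 difference was -0.61 without lung replicate 2 and -0.14 without P0 Emcn- replicate 2. Pecam1 (CD31) was at 36.9 and 163 CPM in lung and 47.8 and 5.14 CPM in P0 Emcn-. Emcn itself was at 32.6 and 125 CPM in lung and 12.7 and 2.52 CPM in P0 Emcn-, against 631 to 798 CPM in P0 Emcn+ (log2 3.33, SE 1.25, adjusted p = 0.184 for lung against P0 Emcn-).

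Vwf, von Willebrand factor, was at 21.9 and 201 CPM in lung and 3.50 and 3.33 CPM in P0 Emcn- (log2 5.07, SE 0.834, adjusted p = 0.00816), and Selp, P-selectin, at 7.65 and 52.1 CPM against 0.327 and 0.101 CPM (log2 6.85, SE 1.24, adjusted p = 0.0122). Both are held in the storage granules of endothelial cells, and both were highest in lung replicate 2, the lung library with more Cdh5. Eng was called at a log2 difference of 1.51 and lost its call with the block (1.45, adjusted p = 0.00351), just under the fold limit. Tek, the gene of the promoter that drove the reporter Cre, was at 6.13 and 7.05 CPM in lung and 20.3 and 49.4 CPM in P0 Emcn- (log2 -2.32, SE 0.367, adjusted p = 0.00684). Tek was lower in lung in both batches, unlike most of the list in batch a. Lung capillary markers other than Foxf1 and Adgrl3 were not called, and Car4, a marker of one capillary type, was under 1 CPM in all 4 libraries.

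**Figure D5:**
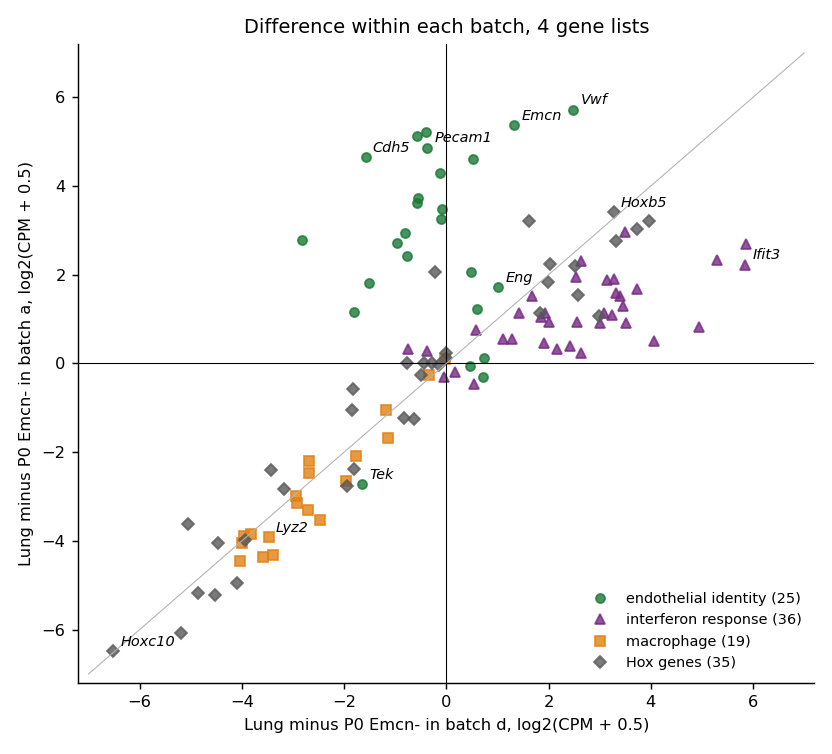
Lung minus P0 Emcn- on the log2(CPM + 0.5) scale in batch d (x axis) and in batch a (y axis) for the tested genes of 4 lists; each symbol is 1 gene and the diagonal marks equal differences. Macrophage and most Hox genes lie along the diagonal, interferon genes lie below it on the right, and most endothelial genes lie near or left of 0 in batch d and above 0 in batch a.

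Clca3a1, a surface protein gene of lymphatic endothelium (chr3:144729677-144760977), had the largest gain in level among the called genes at 5 CPM or more in both lung libraries, at 1159 and 937 CPM in lung and 12.3 and 12.2 CPM in P0 Emcn- (log2 6.49, SE 0.571, adjusted p = 0.000682). In the other marrow libraries it was at 155 to 503 CPM in P0 Emcn+, 52.7 to 291 CPM in P1 to P4 Emcn- and 1.66 to 2.16 CPM in MSC. Syt1, the calcium sensor of vesicle release, had the largest fitted increase of those genes, with 12 and 22.3 CPM in lung and no count in P0 Emcn-, at least 283-fold higher in lung (adjusted p = 0.00152). Besides Tbx20, Fstl4 and Art4 also had no count in P0 Emcn- among the 12 largest increases, at least 130-fold and 101-fold higher in lung. Chodl, Ahsg and Tgtp1 were also in that set, with log2 differences of 6.98, 6.38 and 6.34. Ctla2a, which encodes an inhibitor of cathepsins, was at 453 and 903 CPM in lung and 95.5 and 84.8 CPM in P0 Emcn- (log2 2.97, SE 0.53, adjusted p = 0.0116).

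On the marrow side, Serpine2, a protease inhibitor gene, was at 16.1 and 61.1 CPM in lung and 659 and 453 CPM in P0 Emcn- (log2 -3.80, SE 0.509, adjusted p = 0.00338). Ccn5, a matricellular protein gene, was at 36.3 and 31.4 CPM in lung and 326 and 211 CPM in P0 Emcn- (log2 -2.92, SE 0.373, adjusted p = 0.00267). Emb, the gene of the adhesion protein embigin, was at 110 and 124 CPM against 519 and 407 CPM (log2 -1.92, SE 0.436, adjusted p = 0.0322). In P0 Emcn+ these 3 genes stayed at or below 22.7 CPM.

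Cell cycle genes differed more between the replicates of lung and of P0 Emcn- than between these 2 groups. None of 30 cycling genes was called. The list summed to 3386 and 651 CPM in lung replicates 1 and 2. It summed to 2871 and 412 CPM in P0 Emcn- replicates 1 and 2, so the batch d library was the higher in each group. P0 Emcn+ replicates 1 and 2, of the same batches, were nearly equal at 1723 and 1759 CPM. The 25 glycolysis and hypoxia genes summed to 3763 and 3843 CPM in lung and 9265 and 3784 CPM in P0 Emcn-, and their median difference was -1.35 in batch d and 0.00 in batch a. The 2 called lower, Slc16a3 and Pdk1 (the latter not with the replicate block, adjusted p = 0.0544), were highest in P0 Emcn- replicate 1, Slc16a3 at 0.166 and 0.231 CPM in lung and 69.8 and 2.02 CPM in P0 Emcn- (log2 -7.47, SE 1.72, adjusted p = 0.0343).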

How the data were processed

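Libraries were made from total RNA with the KAPA RNA HyperPrep kit (RNA integrity above 7). The authors processed reads with nf-core RNASeq, STAR and Salmon against GRCm38 and deposited whole-number counts per gene, here unnormalised; Salmon estimates appear to have been rounded. Library groups came from the labels, with 2 libraries in Lung and in P0 Emcn-.

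Counts were tested with edgeR 4.0.16 (R 4.3.3; glmQLFit and glmQLFTest, TMM factors, filterByExpr with a minimum count of 10 and a minimum total of 15), 1 coefficient for each of 8 groups and no block (the authors' methods state DESeq2 defaults and no design formula); called genes passed an adjusted p of 0.05 and a log2 change of 1.5. The procedure was tested on simulated counts. CPM used library totals; within-batch differences used a pseudocount of 0.5 CPM. Lower bounds for genes with no count in a tissue used 3 counts over its 2 libraries, and counting intervals (95%, Clopper-Pearson) cover counting error only. Depth limits precision: 3 counts equal 0.0755 to 0.303 CPM in the 4 libraries.

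Named genes were those of 38 gene lists, and in each direction the 12 called genes with the largest fold and the 8 with the largest difference in mean CPM among 418 called genes at 5 CPM or more in both libraries of the higher side, without overlap and with the same direction in both batches (predicted and unnamed genes, Xist and Y-linked genes left out). The comparison and the lists were chosen with earlier results of these data known. Same-numbered lung and P0 libraries share a batch by the labels, and their deviations from the group means correlated (r = 0.303 for Lung and P0 Emcn-, 0.142 for Lung and P0 Emcn+, 0.155 for P0 Emcn- and P0 Emcn+). Coordinates are from GENCODE M21. Alternatives were DESeq2 1.42.0 (also with ashr 2.2.63), RLE factors, other filters, the replicate block, fewer libraries, thinning to the smallest library and leaving out each library. Some genes that the naming rule or the lists hold are not reported here; they remain in the counts.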

Additional observations from a re-analysis of the deposited data

How the results depend on the processing

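With the replicate number as a block, the pairing by batch, 484 genes were called higher in lung and 362 lower, against 414 and 329 without it, and 678 of the 743 genes were shared. Beyond the Hoxb genes and the others given above, the block ended the calls of 2 of the 113 called genes named, Eng and Pdk1. DESeq2 called 570 higher and 457 lower (1881 genes had no adjusted p), and 478 and 399 with ashr shrinkage. Restricting the genes tested to those at 5 CPM or more gave 173 lower, with fewer genes tested. Fewer libraries in the fit gave fewer calls: 80 higher and 65 lower with the 4 compared libraries, 229 and 175 with their block, 146 and 158 with the 6 P0 and lung libraries, and 176 and 180 with their block; residual degrees of freedom fell from 7 to between 1 and 3. Leaving out single libraries gave 211 to 334 genes called higher (211 without P0 Emcn- replicate 1, 262 without lung replicate 1) and 147 to 348 lower (147 without lung replicate 1, 202 without lung replicate 2); the lone library of that group was assumed to vary like the other groups. None of the 113 called genes named changed direction under any of the 17 alternatives, and 34 of them kept their call under all that tested them. Leaving out single libraries turned the sign of 7 named genes that were not called: the log2 differences ranged over Cdh5 (-0.61 to 4.11), H2-K1 (-0.68 to 0.39), Id3 (-0.27 to 0.05), Marco (-1.40 to 1.27), Mdk (-0.87 to 0.71), Nkx2-1 (-4.27 to 0.49) and Ptprz1 (-3.61 to 1.73). P0 Emcn- replicate 2, with 9914620 counts, limits what can be seen of low genes; thinning every library to that total gave 369 and 276.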
